A study of Mus musculus with 2 samples.

Results

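Trp53, Trp63 and Trp73 encode p53, p63 and p73, the 3 members of the p53 family of transcription factors. Their RNA was examined here in whole stomachs of mouse embryos at day 15.5. All 3 genes were found in both deposited gene tables by identifier, among 43346 genes, and all their 21 transcripts were found in both transcript tables, among 103639 transcripts: 6 of Trp53, 8 of Trp63 and 7 of Trp73. The transcripts were grouped by the position of their annotated start codon into long and short N-terminal forms, a grouping that uses no measured value. The only group was stomach of strain B6NCrl, healthy and untreated as far as the labels say, with male and female embryos mixed. Library 1 came from a pool of 78 embryos and library 2 from a pool of 62, each from 10 ng of total RNA above 200 nucleotides with spike-in RNA added. A pool holds whole stomachs, so all of their cell types were measured together.

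The 3 proteins share a DNA-binding domain and bind related sites as tetramers. p53 is the stress sensor that halts the cell cycle or starts apoptosis after DNA damage. p63 is needed to form stratified epithelia such as epidermis, oesophagus and the forestomach, the squamous-lined front part of the rodent stomach. p73 acts in multiciliated cells and in neurons. Trp63 and Trp73 each have an upstream promoter, which gives a long form with an N-terminal transactivation domain (TA), and an internal promoter, which gives a short form without it (ΔN). ΔNp63 is the form known from basal cells of squamous epithelium, and TAp63 is best known from oocytes. Alternative splicing at the other end gives alpha, beta and gamma forms.

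Protein-coding sequences of the reference transcripts, translated and aligned pairwise, showed how alike the members are. The long forms of p63 (680 codons) and p73 (638 codons) were identical at 59.0% of aligned residues. p53 (387 codons) was identical to p63 at 46.2% and to p73 at 48.4%. In the best window of 180 alignment columns the values were 86.7% for p63 with p73, 59.4% for p53 with p63 and 61.1% for p53 with p73. p63 was therefore closer to p73 than either was to p53, over the whole alignment and in its best window.

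The sequences below mark where the forms of Trp63 part, in GENCODE M21 transcripts on mm10, plus strand. Capitals are the bases that distinguish the form from the other forms; the 12 bases in capitals for Trp63-201 also occur in Trp63-202, Trp63-203, Trp63-204 and Trp63-208. The short form starts on its own exon, at chr16:25802060-25802101, and the long form joins the same downstream exon from chr16:25764255-25764296. Trp63-206 has the long start but runs on past the end of that shared exon into intron sequence at chr16:25820643-25820759, where it meets a stop codon. Trp63-201 and Trp63-205 are both short forms with the alpha end and differ by 12 bases at chr16:25866200-25866211.
Trp63 short start: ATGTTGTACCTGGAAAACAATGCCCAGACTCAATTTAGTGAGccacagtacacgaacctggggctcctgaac
Trp63 long junction: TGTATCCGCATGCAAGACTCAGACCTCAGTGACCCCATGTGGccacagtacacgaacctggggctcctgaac
Trp63-206 end: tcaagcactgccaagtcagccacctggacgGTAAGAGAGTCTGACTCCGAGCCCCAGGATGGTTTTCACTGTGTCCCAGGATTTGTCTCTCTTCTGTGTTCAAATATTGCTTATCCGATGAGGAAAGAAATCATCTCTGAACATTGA
Trp63-201 with 12 bases: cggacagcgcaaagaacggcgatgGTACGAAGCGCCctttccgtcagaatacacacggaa
Trp63-205 without 12 bases: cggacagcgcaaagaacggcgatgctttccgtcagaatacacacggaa

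For Trp53 the forms part at much smaller distances at the start, again in GENCODE M21 on mm10, plus strand. At the end, the last exon of Trp53-202 begins 96 bases further upstream than that of Trp53-201 and holds an earlier stop codon. The capitals in the first line, at chr11:69586891-69586899, are the 9 bases (3 codons) between the upstream start codon of Trp53-203 and the downstream start codon of Trp53-201. The capitals in the others are the coding part of the last exon up to the stop codon, at chr11:69591254-69591308 for the alternative end of Trp53-202 and at chr11:69591350-69591431 for the main end of Trp53-201.
Trp53 starts: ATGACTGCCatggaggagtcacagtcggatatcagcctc
Trp53 alternative end: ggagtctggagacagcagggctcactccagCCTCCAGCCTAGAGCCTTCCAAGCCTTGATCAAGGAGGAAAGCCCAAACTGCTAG
Trp53 main end: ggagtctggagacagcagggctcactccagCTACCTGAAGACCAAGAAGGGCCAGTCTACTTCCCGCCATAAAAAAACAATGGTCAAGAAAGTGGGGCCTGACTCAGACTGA

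The libraries held 43209506 and 44257493 counts on genes, and spike-ins took 1.883% and 2.999% of all counts. Levels are given as TPM, the deposited abundance unit that corrects for length and library size, and a gene was taken as detected at 1 TPM in both libraries. Between the libraries, all 10 squamous markers and all 5 erythroid markers had log2 ratios of library 2 to library 1 below 0. All 7 striated muscle markers had log2 ratios above 0. Of all genes tested, 50.6% had a log2 ratio below 0. By the rule given below, 5 squamous and 2 erythroid markers were called lower, beside 5.91% of all genes, and 3 striated muscle markers higher, beside 169 of 20918 genes. The defining markers of the tissue were present, with Barx1, a transcription factor of stomach mesenchyme, at 142 and 166 TPM and Cldn18, a tight junction protein of stomach epithelium, at 216 and 190 TPM. Since the only group has 2 libraries, tests compare these libraries and not conditions. The labels describe them as pools of different embryos, and the p-values below cover counting error only.

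Trp53 was the most abundant member, Trp63 was next, and Trp73 was under the detection limit. Trp53 (ENSMUSG00000059552.9, chr11:69580359-69591873, plus strand) had 99.96 TPM in library 1 and 106 TPM in library 2 (103 ± 4.33, SD, n = 2), from 5266 and 5653 counts. It stood above 92.9% and 93.2% of the 21474 annotated protein-coding genes. Trp63 (ENSMUSG00000022510.10, chr16:25683763-25892102, plus strand) had 27.7 and 18.9 TPM (23.3 ± 6.21), from 3135 and 2247 counts, above 76.2% and 68.6% of protein-coding genes. Trp73 (ENSMUSG00000029026.12, chr4:154056253-154140208, minus strand) had 0.47 and 0.32 TPM (0.40 ± 0.11), from 58 and 47 counts. The order was the same in both libraries, and no 2 members overlapped.

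**Figure D1:**
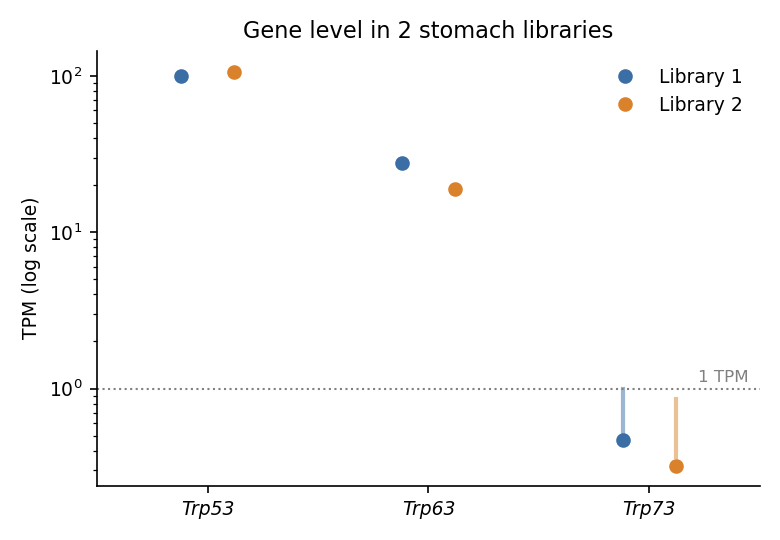
TPM of Trp53, Trp63 and Trp73 (log axis) in library 1 and library 2. Points are the deposited values and vertical bars the deposited credibility bounds, which for Trp53 and Trp63 are shorter than the point. Both points of Trp53 lie at about 100 TPM, those of Trp63 at 27.7 and 18.9, and those of Trp73 below the dotted line at 1 TPM.

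Trp53 exceeded Trp63 by 3.61-fold in library 1 and 5.62-fold in library 2, a log2 ratio of TPM of 2.17 ± 0.45 (SD, n = 2). Without the correction for length the log2 ratio was 1.04, since the main Trp63 transcripts are the longer ones. Trp63 exceeded Trp73 by 58.9-fold and 59.0-fold, a log2 ratio of 5.88. For Trp73 the posterior-mean TPM, a second estimate in the same tables, was higher at 0.72 and 0.58, with which the log2 ratio of Trp63 to Trp73 was 5.12. The deposited bounds for Trp73 ran from 0.47 to 1.00 TPM in library 1 and from 0.37 to 0.85 TPM in library 2, so its TPM lay at the low edge of its own interval in library 1 and below it in library 2.

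Between the libraries, Trp53 was nearly level and Trp63 was lower in library 2. A gene was called different at an adjusted p below 0.05 and a difference of at least 2-fold (exact binomial test on TMM-scaled counts, Benjamini-Hochberg over 20918 genes). By that rule 6.72% of all genes tested were called, and 0 of the 3 members. The log2 ratio of library 2 to library 1 was 0.06 for Trp53 (95% interval 0.006 to 0.11, adjusted p = 0.0828, exact binomial test). It was −0.52 for Trp63 (−0.60 to −0.44, adjusted p = 5.36e-38, exact binomial test), past the p threshold but short of 2-fold, and 32.0% of all genes passed that p threshold alone. For Trp73 it was −0.34 (−0.93 to 0.23, adjusted p = 0.41, exact binomial test), an interval that includes both a rise and a fall. With edgeR's exact test at a common dispersion of 0.0399, the adjusted p of each member was 1.0. That dispersion was estimated from these same 2 libraries treated as 1 group. The differences tested therefore also entered the error, and the test gives no independent measure of variation between pools.

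Scaling by spike-ins in place of TMM lowered the median gene by 0.68 on the log2 scale, and the members moved with it. Trp53 then had a log2 ratio of −0.62, Trp63 −1.20 and Trp73 −1.02, and Trp63 and Trp73 passed the 2-fold rule, where 3448 of the genes were called lower. Relative to the median gene each member stood where it had stood before.

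Most p63 RNA was assigned to transcripts of the short ΔN form. The 4 short transcripts of Trp63 together had 22.5 and 16.2 TPM, which was 81.3% and 86.0% of the gene (83.6% ± 3.29, SD, n = 2). The 4 long transcripts had 5.17 and 2.65 TPM, 18.7% and 14.0% of the gene. The log2 ratio of short to long was 2.37 in TPM. In counts, with no correction for length, the short class held 91.2% of the gene in library 1 (95% Clopper-Pearson interval 90.1% to 92.2%, counting error only) and 93.9% in library 2 (92.8% to 94.8%). The 2 intervals did not overlap. Of all transcript shares tested, 38.2% differed between the libraries at an adjusted p below 0.05 (Fisher's exact test over 42261 transcripts). The short class was the larger in both libraries by every measure.

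Practically all of the long class rested on Trp63-206, the truncated transcript whose end is printed above. Trp63-206 had 5.11 and 2.65 TPM, or 18.5% and 14.0% of the gene, from 266 and 138 counts. It encodes 231 codons and ends before most of the DNA-binding domain, so it is not a full TA protein. Of its 1782 bases, 676 lie in a stretch that is intron in all other Trp63 transcripts. The 3 TA transcripts that run on to the downstream exons were close to 0: Trp63-208 (alpha, 680 codons) had 0.03 and 0 TPM, Trp63-202 (beta, 555 codons) 0.03 and 0 TPM, and Trp63-207 (gamma, 483 codons) 0 and 0 TPM. Together these 3 held 10.8 and 0 counts by the main estimate and 21.4 and 10.2 by the posterior mean, and their upper bounds summed to 0.42 and 0.29 TPM.

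A full-length TAp63 RNA was therefore not detectable above about 0.42 TPM at this depth, while the truncated form was estimated with little spread. The posterior SD of the Trp63-206 count was 4.43 on a mean of 265 counts in library 1 and 3.55 on 138 counts in library 2. The first 3 exons of the long form, 849 bases, are shared by all 4 long transcripts and by no short one. The tables hold no reads per exon. Whether the counts of Trp63-206 lie on those TA exons or on the 676 intronic bases was not tested. Without Trp63-206 the log2 ratio of short to long was 7.29 in posterior-mean TPM, an alternative added after the values were seen.

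**Figure D2:**
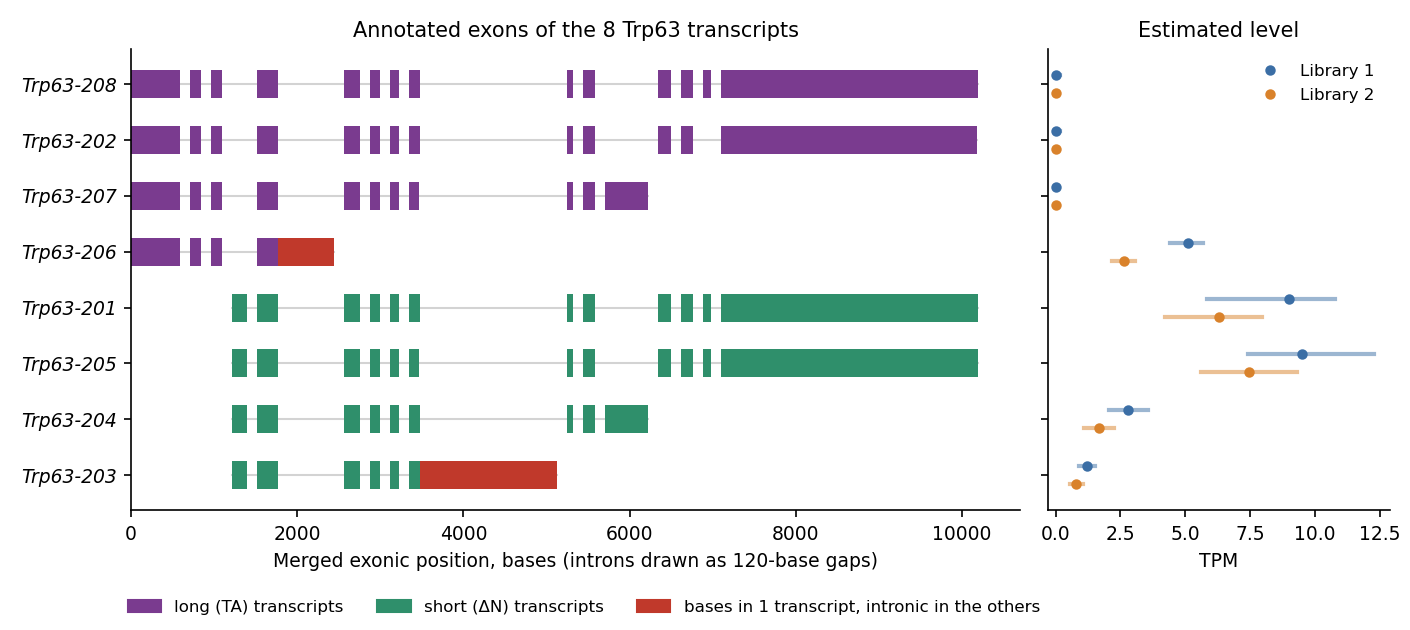
Left, exons of the 8 Trp63 transcripts along merged exonic bases, to scale, with each intron drawn as a gap of fixed width; long forms in purple, short forms in green, and in red the bases of a single transcript that are intronic in the others. Right, TPM of each transcript in library 1 and library 2 with the deposited credibility bounds; Trp63-201 and Trp63-205 are highest, and of the long forms only Trp63-206 lies clear of 0.

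Within the short class the alpha end dominated. Trp63-205 (ΔN alpha, 582 codons) had 9.50 and 7.46 TPM, 34.3% and 39.5% of the gene. Trp63-201 (ΔN alpha, 586 codons) had 8.98 and 6.30 TPM, 32.5% and 33.4% of the gene. Their deposited bounds overlapped in both libraries, from 7.40 to 12.3 TPM against 5.83 to 10.8 TPM in library 1, so their order was not resolved. Trp63-204 (ΔN gamma, 393 codons) had 2.80 and 1.68 TPM. Trp63-203, a short form that stops early in an intron after 284 codons, had 1.21 and 0.79 TPM, with 1643 of its bases in no other transcript.

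By stop codon, the alpha end of p63 took 66.9% and 72.9% of the gene's TPM (69.9% ± 4.22, SD, n = 2). The gamma end took 10.1% and 8.90%. The beta end, annotated here only on a long transcript, took 0.11% and 0%. Among transcripts that do not end in an intron, so without Trp63-206 and Trp63-203, the alpha share was 87.9%, an alternative added after the values were seen. The p63 RNA of these stomachs was thus mainly assigned to ΔN transcripts with the alpha end, the form that carries the C-terminal SAM domain. No ΔN transcript with the beta end is annotated, so such an RNA could not be counted apart from the alpha forms.

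Transcripts with the 12 alternative bases had the larger share in library 1, while in library 2 the order was not clear. Transcripts with the 12 bases took 47.2% and 46.5% of the gene's TPM, and transcripts without them took 34.3% and 39.5%. The remainder was Trp63-206, which ends before that exon. By counts the shares with and without were 48.6% and 43.0% in library 1, with intervals of 46.8% to 50.3% and 41.2% to 44.7% that did not overlap. In library 2 they were 46.6% and 47.3%, with intervals of 44.5% to 48.6% and 45.2% to 49.4% that overlapped. The intervals cover counting error only, not the division of reads among transcripts. Neither class was clearly the more abundant in library 2, and within the short alpha pair the order was not resolved in either library.

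All forms of p63 with enough counts were lower in library 2, without a shift in form beyond the set limits. Of the 8 Trp63 transcripts 5 had at least 10 counts to test. All 5 had an adjusted p below 0.05 (exact binomial test over 54512 transcripts), as did 36.5% of all transcripts, and 0 of 5 passed the 2-fold rule, which 15.9% of all transcripts passed. Their log2 ratios ran from −0.99 for Trp63-206 and −0.77 for Trp63-204 to −0.38 for Trp63-205. In shares of the gene's counts 0 of 5 differed by 10 percentage points or more (Fisher's exact test over 42261 transcripts), where 6.38% of all transcripts did. Below that limit, Trp63-205 held 4.37 points more of the gene in library 2 (adjusted p = 0.0054, Fisher's exact test). For Trp63-206 the difference was −2.34 points (adjusted p = 0.0048, Fisher's exact test). These 2 of 5 passed the p threshold alone, as did 38.2% of all transcript shares tested.

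The squamous markers moved in the same direction as Trp63. All 10 of the squamous list were detected, and 10 of 10 had a log2 ratio below 0. Their summed level was 2957 TPM in library 1 and 1564 TPM in library 2. The basal keratin Krt15 was highest, at 829 and 569 TPM. Krt13 (639 and 324 TPM) and its partner Krt4 (768 and 318 TPM), keratins of the layers above the basal cells, came next. Of the list 5 were called lower, against 5.91% of all genes: Krt13, Krt4, Krt6a, Sprr3 and Krtdap. By edgeR's exact test, whose dispersion came from the same 2 libraries, 1 of these 5 was also called, Sprr3. Sprr3 and Krtdap are products of differentiating squamous cells. The list's median level was 167 TPM in library 1 and 76.2 TPM in library 2, and Trp63 was 16.6% and 24.8% of it. In bulk tissue, fewer squamous cells and less RNA per cell cannot be told apart, and the part of the squamous markers in the Trp63 result was not tested.

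Markers of other tissues that express p63 were scarce for germ cells, skin and airway, while those of urothelium were present. Of 8 germ cell markers 1 was detected, the egg coat gene Zp3 with 1.38 and 1.34 TPM, and the list summed to 1.86 and 1.95 TPM. Figla and Mael were at 0 counts in both libraries. Of 8 skin markers 3 were detected, Krt10, Lor and Krt1, at 7.21 and 6.16, 2.89 and 2.13, and 1.59 and 1.25 TPM; Krt2, Flg2 and Krt71 were at 0 counts, and the list summed to 11.9 and 9.65 TPM. All 4 urothelial markers were detected, at a sum of 53.4 and 47.6 TPM, led by Upk2, a bladder surface protein, at 27.3 and 18.8 TPM. Of 4 airway and lung markers the surfactant gene Sftpc alone was detected, at 5.28 and 3.48 TPM, and the list summed to 5.90 and 3.54 TPM. Their part in the p63 result was not tested.

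Targets of p63 were all present, most with a log2 ratio below 0. All 28 listed targets were detected, with a median of 12.7 and 10.8 TPM beside 17.5 and 17.9 TPM for all detected protein-coding genes. Krt15, Krt5 and Perp were the highest: Krt5, the basal keratin, had 247 and 152 TPM, and Perp, a desmosome-associated membrane protein, had 251 and 154 TPM. Of the 28 log2 ratios 25 were below 0, beside 50.6% of all genes, and their median was −0.35 beside −0.003 for all genes. Of the 28, 21 passed the p threshold, beside 32.0% of all genes. Among these 21 were the 3 with log2 ratios above 0, Itga6, Fras1 and Chuk, which were named after their values were seen. Only Tprg, whose name records its regulation by p63, was called lower, beside 5.91% of all genes, with 4.55 and 2.19 TPM and a log2 ratio of −1.08 (adjusted p = 2.12e-06, exact binomial test), and 0 were called higher. With edgeR's exact test its adjusted p was 0.39. The list shares 5 genes with the squamous markers, so the 2 lists are not separate.

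Regulators of p63 were all expressed, with a median log2 ratio of 0.08. Of the 14, 11 passed the p threshold, beside 32.0% of all genes, and 0 the 2-fold rule, beside 6.72%. Nedd4, a ubiquitin ligase, was highest at 411 and 442 TPM, followed by the histone deacetylases Hdac1 at 165 and 164 TPM and Hdac2 at 159 and 156 TPM. Itch, the ubiquitin ligase that marks p63 for degradation, had 40.0 and 41.1 TPM; it was named for this role after its values were seen.

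**Figure D3:**
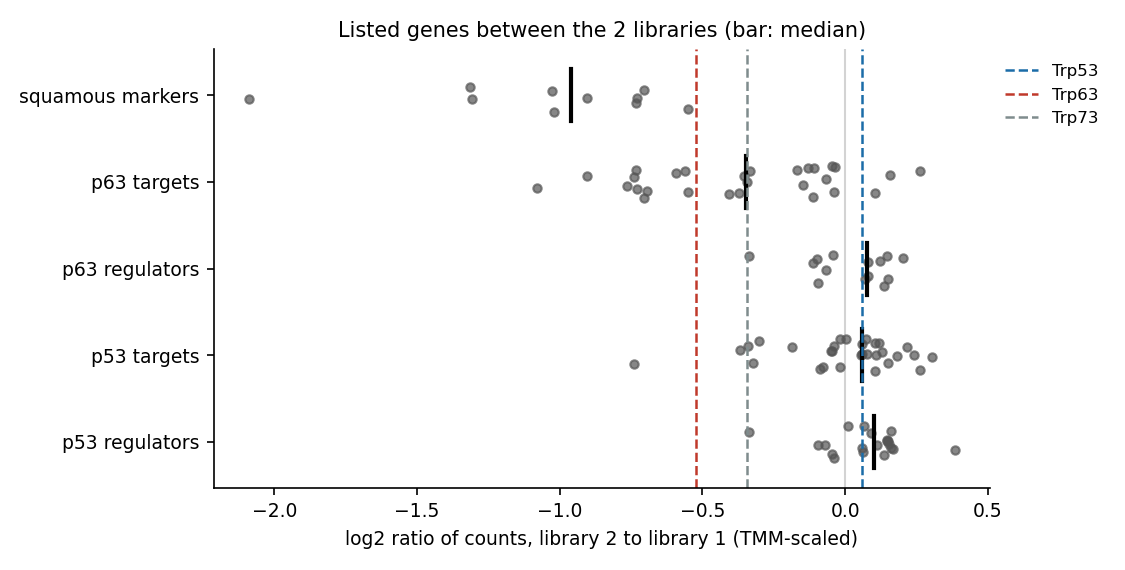
Log2 ratio of TMM-scaled counts, library 2 to library 1, for each tested gene of 5 lists (points, spread vertically only for visibility); black bars are list medians and dashed lines the 3 members. The p53 lists and p63 regulators centre close to 0, p63 targets lie mostly below 0, and all 10 squamous markers lie below 0.

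Trp53 RNA was mostly of 1 coding structure, with an uncertain start and a minor alternative end. Trp53-201 was estimated at 82.9 and 87.8 TPM, Trp53-202 at 13.4 and 13.2 TPM, Trp53-205 at 2.21 and 2.77 TPM, Trp53-203 at 0.95 and 2.36 TPM, Trp53-204 at 0.48 and 0 TPM, and Trp53-206 at 0 and 0 TPM. By start codon, the class of the downstream start (Trp53-201 and Trp53-202) took 96.4% and 95.2% of the gene's TPM and that of the upstream start (Trp53-203 and Trp53-206) 0.95% and 2.22%. These classes differ by only the 3 codons printed above, and both keep the whole transactivation domain, unlike the forms of p63. No annotated transcript of Trp53 with a complete coding sequence corresponded to a ΔN form.

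The split of Trp53 by start codon could not be resolved. Trp53-203, of 1771 bases, is identical to Trp53-201 except that it lacks the last base of its 3′ end, and both contain both start codons. The expected count put 4282 and 4554 counts on Trp53-201 and 49.0 and 122 on Trp53-203. The posterior mean put 2693 and 2455 on Trp53-201 and 1611 and 2195 on Trp53-203, with SDs between 1160 and 1388. With it the upstream class took 31.6% and 40.7% of the gene. The posterior SD of Trp53-201 was 43.4% and 56.5% of its mean, beside a median of 6.74% and 6.81% over transcripts with at least 50 counts.

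**Figure D4:**
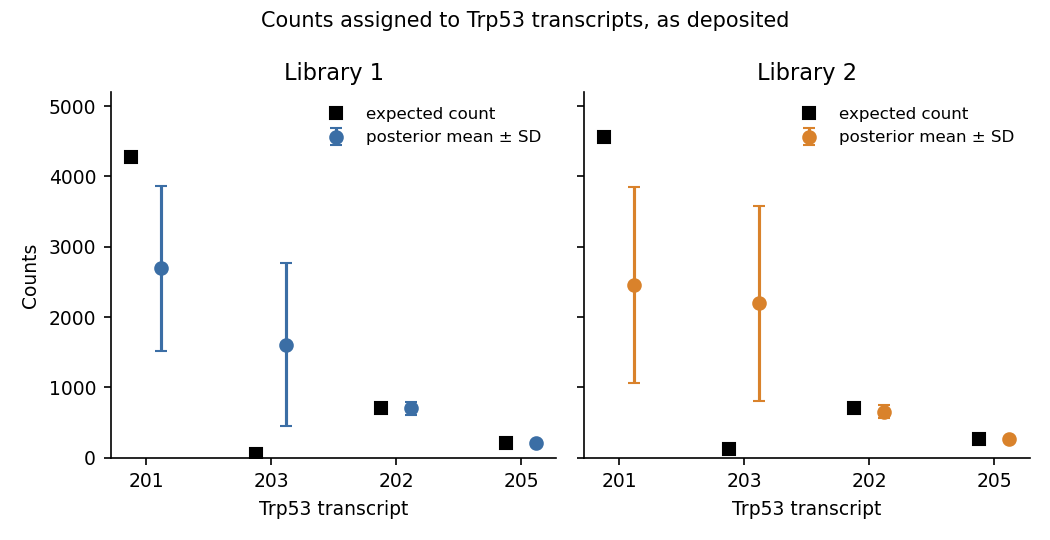
Counts assigned to 4 Trp53 transcripts in library 1 (left) and library 2 (right), with squares for the expected count and circles with bars for the posterior mean and its SD, all deposited values. The 2 estimates lie far apart for Trp53-201 and Trp53-203 and close together for Trp53-202 and Trp53-205.

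The end of Trp53 was better determined than its start. Transcripts with the main stop codon took 83.9% and 85.0% of the TPM (84.4% ± 0.76, SD, n = 2). The alternative end took 13.4% and 12.4% (12.9% ± 0.70), and 13.8% and 12.7% by the posterior mean. Its last exon begins 96 bases further upstream, which gives a different C-terminal coding sequence. Trp53-205, which retains intron sequence and has no annotated coding sequence, had 217 and 273 counts, 2098 of its 3275 bases being in no other transcript. Of 4 Trp53 transcripts tested between the libraries 1 was called, beside 15.9% of all transcripts. It was Trp53-203, higher with a log2 ratio of 1.27 (adjusted p = 4.93e-07, exact binomial test), and that call rests on the unresolved split from Trp53-201. In shares of the gene 0 of 4 were called, beside 6.38% of all transcripts.

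Targets of p53 were all expressed, and none was called between the libraries. All 30 listed targets were detected, with medians of 16.9 and 18.8 TPM and a median log2 ratio of 0.06. Of the 30, 10 passed the p threshold, beside 32.0% of all genes, and 0 the 2-fold rule, beside 6.72% (exact binomial test). Perp was highest at 251 and 154 TPM, and it is also a target of p63 and on that list. Bax, a trigger of apoptosis, followed at 114 and 123 TPM, and Plk2, a stress-responsive kinase, at 85.2 and 105 TPM. Cdkn1a, the cell cycle inhibitor p21, had 93.9 and 84.1 TPM, and Mdm2, the ubiquitin ligase that p53 induces and that degrades it, 31.4 and 36.3 TPM; both were named for these roles after their values were seen.

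Regulators of p53 were present with a single exception. Of 21 listed regulators 20 were detected, with a median log2 ratio of 0.10, and of the 20 tested 11 passed the p threshold, beside 32.0% of all genes, and 0 the 2-fold rule, beside 6.72%. The exception was Cdkn2a, which encodes the Mdm2 inhibitor ARF, with 0 and 1 counts. The ribosomal protein Rpl11, which binds Mdm2, was highest at 272 and 365 TPM, followed by the ubiquitin ligases Cop1 at 72.9 and 74.1 TPM and Rchy1 at 64.8 and 68.6 TPM.

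Trp73 RNA was too sparse to give its forms. Trp73-205 (ΔN alpha, 590 codons) had 0.40 and 0.23 TPM from 56.8 and 32.8 counts. Trp73-204 (TA alpha, 638 codons) had 0 and 0.09 TPM from 0 and 14.2 counts, while the posterior mean gave it 11.2 and 14.4 counts. Trp73-206, a TA fragment with no annotated stop codon, had 0.08 and 0 TPM from 1.25 and 0 counts, and the other 4 transcripts were at 0 in both libraries. The short class took 83.3% and 71.9% of the TPM and 69.0% and 66.7% of the posterior-mean TPM. Its share of counts had an interval of 90.8% to 99.96% in library 1 and of 55.1% to 82.7% in library 2. Only 2 Trp73 transcripts had enough counts to be tested between the libraries, and 1 was called, beside 15.9% of all transcripts. Trp73-205 had a log2 ratio of −0.82 (adjusted p = 0.0252, exact binomial test) and was not called. Trp73-204 was called higher from 0 counts (adjusted p = 0.0006, exact binomial test) although its posterior means differed by less than their SDs of 10.7 and 11.3.

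**Figure D5:**
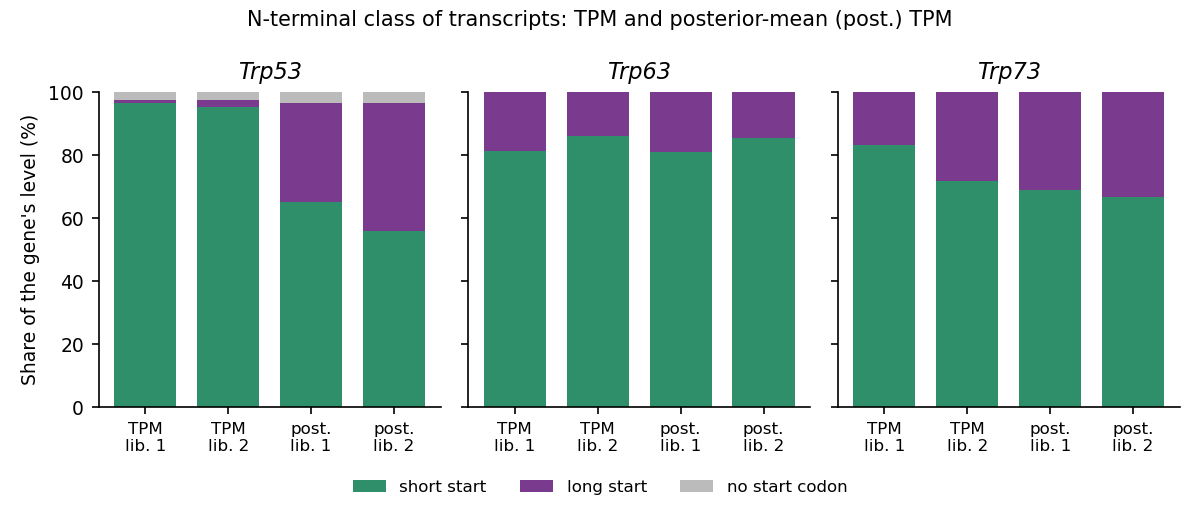
Share of each gene's level in transcripts with a short start, a long start or no annotated start codon, in percent, for library 1 and library 2, by TPM (left pair of bars) and by posterior-mean TPM (right pair). The shares agree between the 2 estimates for Trp63, differ for Trp53, where the classes are 3 codons apart, and differ in part for Trp73, which rests on 58 and 47 counts.

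Genes of the settings in which p73 is best known were scarce as well. Of 12 genes of the multiciliated programme 6 were detected, and 6 lay below 1 TPM in both libraries. The highest were Rfx3 at 7.06 and 7.77 TPM, Traf3ip1 at 6.87 and 6.36 TPM and Myb at 4.26 and 4.16 TPM, which also act outside multiciliated cells. Deup1, a gene of centriole amplification, was called higher from 8 and 26 counts (log2 ratio 1.60, adjusted p = 0.0122, exact binomial test), beside 6.72% of all genes called. Its adjusted p with edgeR's exact test was 0.39, and it lay below 1 TPM in both libraries. Of 6 markers of neurons 5 were detected, led by Tubb3 at 45.7 and 46.5 TPM; Reln, a product of the p73-positive Cajal-Retzius cells, had 4.02 and 3.22 TPM and Lhx5 0.12 and 0.14 TPM.

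Overlapping genes and the pseudogene in the annotation had no counts. Whether counting used strand is not stated, so reads of a gene and an antisense partner cannot be told apart where they overlap. Wrap53, on the opposite strand, starts 103 bases from Trp53 and had 17.8 and 20.0 TPM, without overlap in this annotation. Trp73os, antisense within Trp73, was at 0 counts, as were the small genes Gm24928 and Gm27005 within Trp63 and Gm26036 within Trp73. The processed pseudogene Trp53-ps was at 0 counts.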

How the data were processed

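Total RNA of 2 pools of stomachs was sequenced. Each library has 1 table of genes and 1 of transcripts, deposited by the authors. A text file deposited with them names the build, mm10, the annotation, M4, and the input, transcriptome alignments. The aligner, the quantification program and the use of strand are not given in the sources used here. Per the file headers, they hold an expected count and a posterior mean count with its SD (reads matching several transcripts are divided among them), TPM and FPKM scaled by the authors, the share of each transcript in percent of its gene, and credibility bounds of TPM, a signal value in the deposited tables whose level was not stated. These bounds and the SD describe the error of the estimate, not variation between embryos.

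Symbols, start and stop codons and sequences came from GENCODE M21 on mm10, matched by identifier without version; 98.0% of genes matched and all 21 member transcripts had equal lengths. A long form starts at or upstream of the gene's most upstream start codon among complete coding sequences, a short form downstream of it. Proteins were translated from M21 coding sequences, in place of a protein table that was planned, and aligned globally (Biopython 1.88).

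Expected counts were rounded. Libraries were compared by two-sided exact binomial tests with TMM sizes (edgeR 4.0.16, R 4.3.3) over genes or transcripts with at least 10 counts in the sum, prior count 0.5, and by two-sided Fisher's exact tests of transcript shares (SciPy 1.17.1) in genes with at least 100 counts per library; scripts were tested on simulated data. Spike-ins were left out of sizes and tests. The edgeR exact test used a common dispersion estimated from the 2 libraries treated as 1 group. Its results, DESeq2 1.42.0 size factors and other alternatives are in the closing section. Named genes are the members and, of each list used, the 3 highest, those below 1 TPM (by count where many) and those called, apart from exceptions named in the text. The members and the gene lists were chosen with earlier results of these data known.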

Additional observations from a re-analysis of the deposited data

How the results depend on the processing

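Only 2 libraries of a single group limit every value, and the transcript assignment limits the Trp53 start classes and all of Trp73. No paired analysis was possible because the series has 1 group and its replicate numbers pair no samples. By expected counts without length correction the mean log2 ratios were 1.04 for Trp53 over Trp63, 5.67 for Trp63 over Trp73, 3.65 for short over long Trp63 and 3.35 for short over long Trp73, and the Trp63 alpha share was 85.6%. By posterior means they were 5.12 for Trp63 over Trp73, 0.75 for short over long Trp53 and 1.08 for short over long Trp73, with a Trp73 alpha share of 57.2% beside 91.7% in TPM. The log2 ratio of Trp63 over Trp73 was 5.87 by FPKM and 5.87 by the summed transcript table, moved because its replicate SD was only 0.003. Without Trp63-206 the log2 ratio of short to long Trp63 was 7.29, and without Trp63-206 and Trp63-203 the alpha share was 87.9%. Both settings were added after seeing the data. Short over long Trp53 by transcript start alone gave no value, since its short class was at 0 in library 2.

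Of genes, 1406 were called (169 higher, 1237 lower), 3504 with spike-in sizes (56 higher, 3448 lower) and 674 with the edgeR exact test (44 higher, 630 lower). Spike-in sizes took the log2 ratio of Trp63 to −1.20 and of Trp73 to −1.02, both then called lower, and turned Trp53 from 0.06 to −0.62, p53 regulators from 0.10 to −0.58, p53 targets from 0.06 to −0.62 and p63 regulators from 0.08 to −0.60 (medians of lists), and took p63 targets to −1.03 with 16 called lower. Leaving out a library gave 1.85 to 2.49 for Trp53 over Trp63, 2.12 to 2.61 for short over long Trp63 and 66.9% to 72.9% for the Trp63 alpha share. No other alternative that was run changed the direction or the call of a member gene or transcript.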
